A study of Mus musculus with 6 samples.

Results

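The genes described here make ribosomes or organise the nucleolus, the nuclear body in which ribosomes are built. Of 52 listed genes, 50 had a probe set annotated to them alone, among 18194 genes with such a probe set, and each gene was read from the probe set with the highest mean over the 6 arrays. The genes were listed by function, and comprise 8 genes of rRNA synthesis, 8 proteins of small nucleolar ribonucleoproteins (snoRNPs), 18 factors of the small subunit, 13 of the large subunit (12 measured) and 5 nucleolar proteins (4 measured). Npm3 had no such probe set. Mrto4 shared its only probe set with 2 pseudogenes and was left out; that probe set read 11.38 and 11.37 with control siRNA, 11.41 and 11.29 with siRNA #1, and 11.20 and 11.22 with siRNA #2 (log2).

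The study transfected E14Tg2a mouse embryonic stem cells, an established line, with short interfering RNA against Ncl, which encodes the abundant nucleolar protein nucleolin, and measured total RNA on Affymetrix arrays at 96 h. There were 3 groups of 2 arrays: a control siRNA against firefly luciferase, a sequence that mouse cells lack, Ncl siRNA #1 and Ncl siRNA #2, which are different duplexes against the same transcript. The labels give no genetic change, no further agent and no statement that replicates came from separate cultures, so the spread behind each p-value is that between arrays and may be technical. All 3 groups share the line and the time, and every difference from control rests on the same 2 control arrays.

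Ribosome production starts when RNA polymerase I copies the rDNA repeats into a long precursor RNA. SnoRNPs guide the methylation and pseudouridylation of that precursor, and a large assembly, the small subunit processome, folds and cuts the part that becomes 18S rRNA while other factors build the large subunit. Nucleolin acts in this pathway, and stem cells that divide fast are known for a high demand for ribosomes.

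The values are the authors' log2 signals, and differences are differences of log2 group means with the SE from limma (2 arrays per group). A gene is said to have risen or fallen where limma's p-value, adjusted by Benjamini-Hochberg over all 18194 genes, was below 0.05. On the Ncl probe set with the highest mean the target read 14.21 and 14.21 with control siRNA, 13.77 and 13.74 with siRNA #1, and 13.77 and 13.72 with siRNA #2, so 72.9% and 72.5% of control remained, and its 5 probe sets differed from control by -0.46 to -1.50 in the mean of both siRNAs. All 50 genes had a mean signal above the median of all genes. The median absolute difference between replicate arrays was 0.11 for control, 0.15 for siRNA #1 and 0.08 for siRNA #2.

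All 10 embryonic stem cell markers were measured, and none lay below the lower quartile of all probe sets. Their summed linear signal was 87560 to 88100 on the control arrays, 77620 to 78750 with siRNA #1 and 68300 to 68390 with siRNA #2. The 8 airway secretory markers summed to 9198 to 9344 on the control arrays, 200.6 to 243.4 with siRNA #1 and 214.8 to 251.5 with siRNA #2. On the Ncl siRNA arrays Scgb1a1, Bpifa1, Cyp2f2, Reg3g and Aldh1a7 lay below the lower quartile of all probe sets. The 6 measured of 7 alveolar type 2 markers summed to 2653 to 2998, 577.6 to 617.7 and 518.3 to 529.5 in the same order, and the 5 alveolar type 1 markers to 2385 to 2516, 908.9 to 959.4 and 845.5 to 866.4. The 8 cardiac markers summed to 691.6 to 848.0, 314.9 to 346.6 and 307.0 to 314.2, and the 7 fibroblast markers to 380.9 to 506.4, 238.1 to 264.2 and 247.3 to 266.1. The array's 18S rRNA probe sets averaged 12.10, 13.08 and 13.11 and its spiked poly-A controls 7.20, 8.13 and 7.87 (log2). Its hybridisation controls averaged 12.03, 11.23 and 11.16. The 3' minus 5' difference of its beta-actin probe sets, a sign of RNA quality, was 0.48, 0.26 and 0.23, so both were highest on the control arrays. The same difference for its Gapdh probe sets was -0.027, -0.015 and 0.010, and there the control arrays lay within the range of the siRNA #1 arrays. Both control arrays held the airway signal, so no comparison with control could be made without it, and the part of all these values in the results was not tested. In bulk RNA, fewer cells of a kind and less RNA per cell cannot be told apart.

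More of the ribosome biogenesis genes were lower than higher after either siRNA, by modest amounts, and on the probe set used for each gene none changed by 2-fold or more. A second Ubtf probe set did, at 19.3% and 17.1% of control. With siRNA #1, 20 of 50 fell (40%), 8 rose (16%) and 22 did not pass. Of all genes 37.4% passed in that comparison, 17.3% falling and 20.2% rising, and of the 9097 genes at or above the median signal 56.2% passed, 24.8% falling and 31.4% rising. With siRNA #2, 29 fell (58%), 4 rose (8%) and 17 did not pass, beside 39.5% of all genes (21.7% falling, 17.7% rising) and 61.9% of the brighter genes (35.5% falling, 26.4% rising). The median difference from control over the 50 genes was -0.09 with siRNA #1 and -0.17 with siRNA #2, beside 0.02 and -0.06 over the brighter genes and -0.05 and -0.04 over all genes.

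The mean of both siRNAs gave 26 genes that fell (52%) and 8 that rose (16%), with a median of -0.12. In that comparison 42.0% of all genes passed (21.7% falling, 20.3% rising) and 63.5% of the brighter genes (32.8% falling, 30.7% rising), whose median was -0.02. The 34 of 50 genes that passed in either direction (68%) were thus near the share of the brighter genes; the list as such was not tested. Without control replicate 1 or without control replicate 2, the 8 that rose became 5. Without siRNA #1 replicate 1 or siRNA #1 replicate 2, the 4 that rose with siRNA #2 became 8.

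The same genes were compared by whether the arrays of the 2 groups overlapped. With siRNA #1 both arrays lay below both control arrays for 26 genes and above for 12, beside 34.2% and 29.9% of all genes. With siRNA #2 both arrays lay below for 36 genes and above for 10, beside 38.6% and 31.0% of all genes. All 4 Ncl siRNA arrays lay below both control arrays for 26 genes and above for 7, beside 26.7% and 23.4% of all genes. Among the 9097 brighter genes 3192 lay below and 3808 above with siRNA #1. The counts below and above were 4463 and 3302 with siRNA #2, and 3048 and 3039 for all 4 Ncl siRNA arrays.

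**Figure D1:**
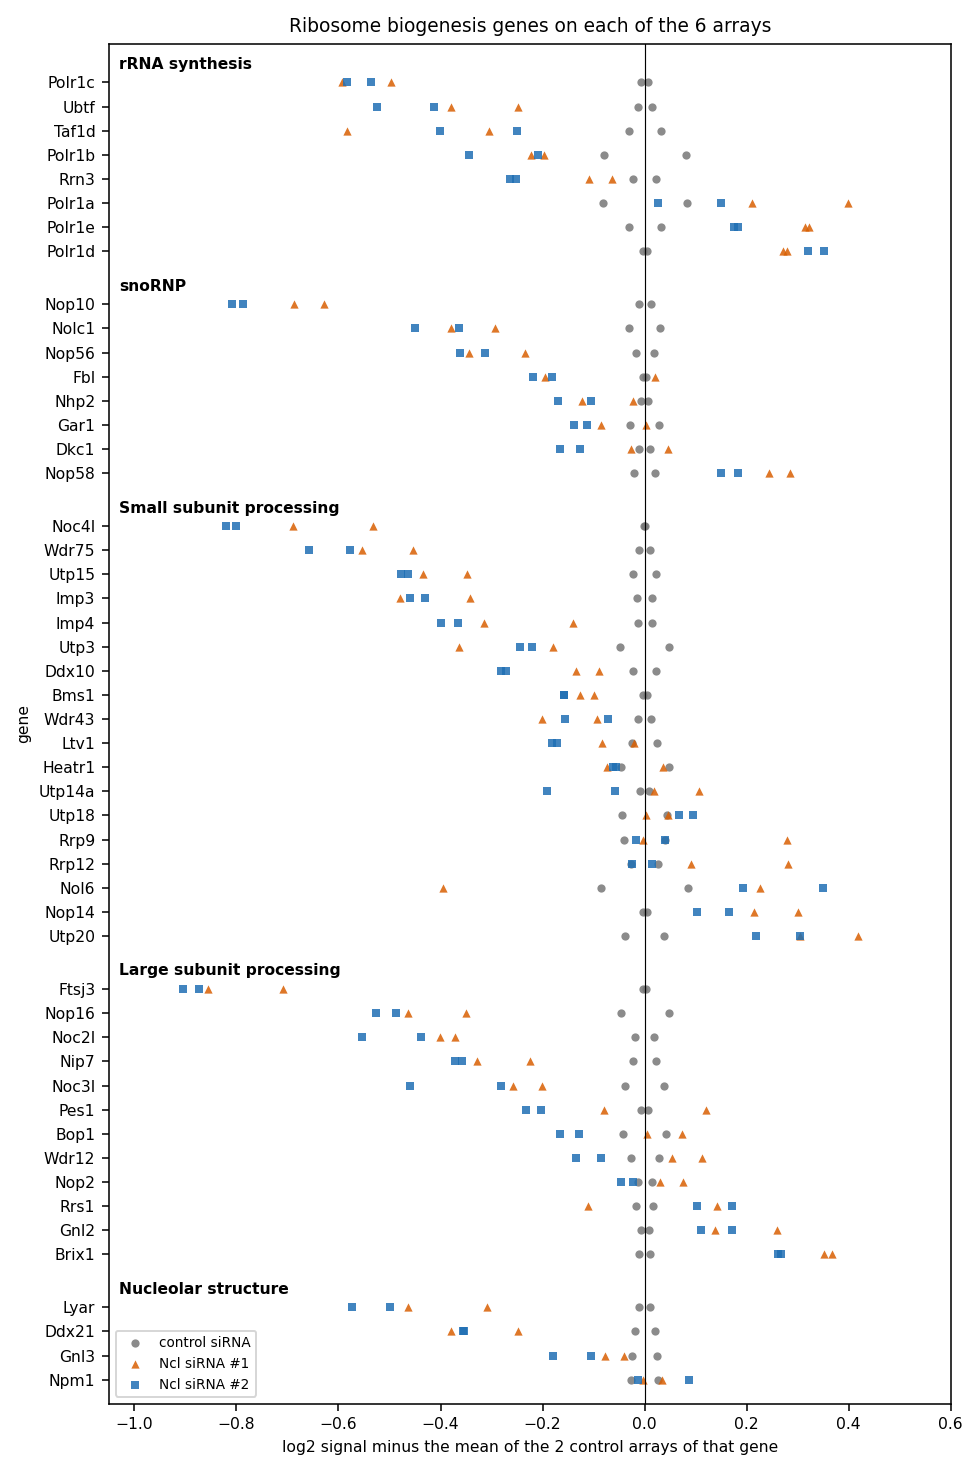
Log2 signal of each of the 50 genes on each of the 6 arrays (horizontal axis, as the difference from the mean of both control arrays of that gene), 1 row per gene grouped by step, with circles for control siRNA, triangles for siRNA #1 and squares for siRNA #2. For 26 genes all 4 Ncl siRNA points lie left of both control points, with Ftsj3 farthest, and for 7, Polr1d and Brix1 among them, all 4 lie right of them.

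**Figure D2:**
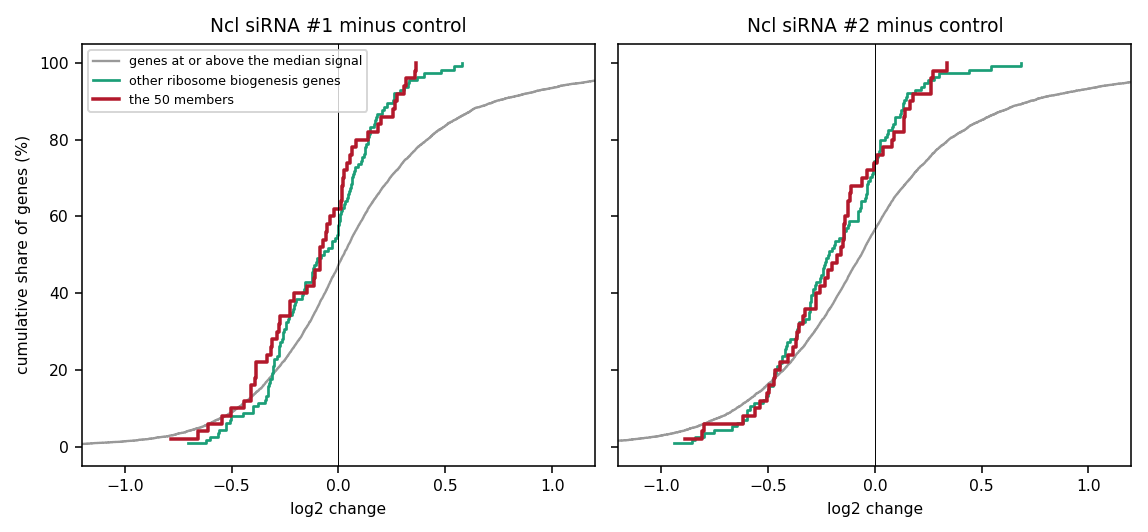
Cumulative share of genes (vertical axis, percent) by log2 difference from control (horizontal axis, drawn from -1.2 to 1.2), with siRNA #1 on the left and siRNA #2 on the right, for the 50 genes, the 114 other ribosome biogenesis genes and the genes at or above the median signal. The medians of the 50 genes are -0.09 and -0.17 and those of the brighter genes 0.02 and -0.06.

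Promoter sequences are shown for 4 genes: Ftsj3 and Nop10, which had the lowest differences from control of the 50 genes in the mean of both siRNAs, Brix1, which had the highest, and Rrn3, whose window held 2 copies of CACGTG, the E-box that MYC and other factors are known to bind. They are the 250 bases before the annotated start in RefSeq (GRCm38.p6), on the gene's own strand from 5' to 3', with CACGTG in capitals. Ftsj3 lies at chr11:106256085-106256334 (minus strand), Nop10 at chr2:112261676-112261925 (plus strand), Brix1 at chr15:10485938-10486187 (minus strand) and Rrn3 at chr16:13780449-13780698 (plus strand).
Ftsj3: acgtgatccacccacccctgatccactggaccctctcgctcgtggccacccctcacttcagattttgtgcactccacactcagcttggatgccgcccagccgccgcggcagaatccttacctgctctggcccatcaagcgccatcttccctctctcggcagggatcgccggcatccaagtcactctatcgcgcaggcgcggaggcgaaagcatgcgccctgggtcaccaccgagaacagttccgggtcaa
Nop10: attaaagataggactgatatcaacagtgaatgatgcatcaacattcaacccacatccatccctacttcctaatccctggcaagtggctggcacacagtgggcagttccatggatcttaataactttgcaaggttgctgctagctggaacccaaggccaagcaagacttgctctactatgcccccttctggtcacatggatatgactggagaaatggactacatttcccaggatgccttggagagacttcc
Brix1: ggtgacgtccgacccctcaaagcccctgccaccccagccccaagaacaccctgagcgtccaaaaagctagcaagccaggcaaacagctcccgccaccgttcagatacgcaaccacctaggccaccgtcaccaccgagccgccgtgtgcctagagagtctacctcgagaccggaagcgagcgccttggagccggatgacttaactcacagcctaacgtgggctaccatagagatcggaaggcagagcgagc
Rrn3: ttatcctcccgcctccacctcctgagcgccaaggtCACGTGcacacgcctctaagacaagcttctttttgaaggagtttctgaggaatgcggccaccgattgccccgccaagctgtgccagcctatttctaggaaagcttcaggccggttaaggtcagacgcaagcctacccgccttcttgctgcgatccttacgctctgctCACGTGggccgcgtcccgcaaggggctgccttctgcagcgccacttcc

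The Rrn3 window held CACGTG at 215 and 48 bases before the start, and the Ftsj3, Nop10 and Brix1 windows held none. RefSeq gave a window from 250 bases before to 50 bases after the start for 45 of the 52 listed genes, and 8 of those 45 (17.8%) held CACGTG, a palindrome that reads the same on both strands, beside 2187 of 27025 windows of all genes (8.09%). The other copies lay 121 bases before the start of Imp4, 60 before Nop2 and 20 before Utp18, and 3, 18, 29 and 38 bases after the starts of Pes1, Wdr43, Ltv1 and Utp20. Of these 8 genes Imp4 fell with both siRNAs, Rrn3, Pes1 and Ltv1 fell with siRNA #2, Utp20 rose with both, and Nop2, Utp18 and Wdr43 passed with neither. The median GC content of the windows was 60.7% for the 45 genes and 52.7% for all genes, and windows were not compared at equal GC content.

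In rRNA synthesis, some subunits and factors of RNA polymerase I fell and others rose. With siRNA #1, 4 of 8 fell and 3 rose, beside 24.8% and 31.4% of the brighter genes. With siRNA #2, 5 fell and 1 rose, beside 35.5% and 26.4% of the brighter genes. Neither this step nor any other was tested against these shares. Polr1c, a subunit shared by RNA polymerases I and III, read 12.06 and 12.04 with control siRNA, 11.55 and 11.46 with siRNA #1, and 11.47 and 11.51 with siRNA #2. Both siRNA groups lay below control, at 68.5% and 67.8% of it, a difference of -0.54 ± 0.05 (adjusted p = 4.52e-08) for siRNA #1 and -0.56 ± 0.05 (adjusted p = 2.28e-08) for siRNA #2. Polr1d, the partner of Polr1c in both enzymes, rose on the probe set used. It read 12.68 and 12.67 with control siRNA, 12.95 and 12.94 with siRNA #1, and 13.03 and 12.99 with siRNA #2, so that all 4 Ncl siRNA arrays were above control, by 0.28 ± 0.04 (adjusted p = 3.11e-05) and 0.34 ± 0.04 (adjusted p = 1.89e-06). That probe set ends in _x_at, a suffix for probes that may match several transcripts. Without _x_at and _s_at probe sets the Polr1d differences were 0.12 (adjusted p = 0.137) and -0.014 (adjusted p = 0.9), from the brighter of its 2 probe sets without those suffixes. The other of these gave -0.06 with siRNA #1 and fell by 0.33 with siRNA #2 (limma, adjusted p = 0.42 and 9e-05 over all probe sets).

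Ubtf, the factor that binds the rDNA promoter and keeps the repeats in an open state, read 11.12 and 11.10 with control siRNA, 10.86 and 10.73 with siRNA #1, and 10.59 and 10.70 with siRNA #2. No Ncl siRNA array reached the control range, and the differences were -0.31 ± 0.07 (adjusted p = 0.00052) and -0.47 ± 0.07 (adjusted p = 3.86e-06). Taf1d, a subunit of the promoter selectivity factor SL1, fell by 0.44 and 0.33 (adjusted p = 9.14e-05 and 0.0018). It read 10.97 and 11.03 with control siRNA, 10.41 and 10.69 with siRNA #1, and 10.60 and 10.75 with siRNA #2, below control on each Ncl siRNA array, and the mean of its 7 probe sets gave -0.17 for siRNA #2 (adjusted p = 0.0643). In the mean of both siRNAs 6 of the 7 Taf1d probe sets were below 0. The other rose with both siRNAs, by 0.36 and 0.28 (limma, adjusted p = 0.00393 and 0.0204 over all probe sets). Polr1b, the second subunit of the enzyme's core, read 10.46 and 10.30 with control siRNA, 10.16 and 10.19 with siRNA #1, and 10.18 and 10.04 with siRNA #2. Its differences of -0.21 ± 0.07 (adjusted p = 0.0291) and -0.28 ± 0.07 (adjusted p = 0.00431) passed, but without control replicate 1 they were -0.13 (adjusted p = 0.326) and -0.20 (adjusted p = 0.112). They were also lost for siRNA #1 without its replicate 1 (-0.20, adjusted p = 0.0797) and for siRNA #2 without its replicate 2 (-0.21, adjusted p = 0.119).

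Rrn3, which carries the polymerase to the promoter, was lower with siRNA #2. It read 11.27 and 11.23 with control siRNA, 11.14 and 11.19 with siRNA #1, and 11.00 and 10.99 with siRNA #2, and both siRNA groups lay below control without overlap. The difference was -0.26 ± 0.06 (adjusted p = 0.000849) for siRNA #2 and -0.09 ± 0.06 (adjusted p = 0.259) for siRNA #1, and between the siRNAs -0.17 ± 0.06 (adjusted p = 0.0677), which missed the threshold. Polr1a, the largest subunit with the catalytic centre, and Polr1e, a peripheral subunit, were higher with siRNA #1 on the probe sets used. The Polr1a probe set with the next highest signal went the other way. It gave -0.20 with siRNA #1 and -0.485 with siRNA #2 (limma, adjusted p = 0.152 and 0.00112 over all probe sets). In the mean of both siRNAs 2 of the 5 Polr1a probe sets were above 0. Polr1a read 10.11 and 9.94 with control siRNA, 10.42 and 10.24 with siRNA #1, and 10.05 and 10.18 with siRNA #2, rose by 0.30 ± 0.08 (adjusted p = 0.00411) with siRNA #1 and overlapped control with siRNA #2 at 0.09 ± 0.08 (adjusted p = 0.441). The siRNA #1 call was lost without control replicate 2 (0.22, adjusted p = 0.0876) or without siRNA #1 replicate 1 (0.21, adjusted p = 0.0636), and the mean of its 5 probe sets gave 0.040 (adjusted p = 0.78). Polr1e read 9.56 and 9.63 with control siRNA, 9.91 and 9.92 with siRNA #1, and 9.77 and 9.78 with siRNA #2, above control on all 4 Ncl siRNA arrays, with differences of 0.32 ± 0.07 (adjusted p = 0.00127) and 0.18 ± 0.07 (adjusted p = 0.0567). The difference between the siRNAs passed for neither gene (-0.22, adjusted p = 0.0971, for Polr1a and -0.14, adjusted p = 0.247, for Polr1e).

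Among the 8 snoRNP proteins, 3 fell and 1 rose with siRNA #1, beside 24.8% and 31.4% of the brighter genes. With siRNA #2, 6 fell and 1 rose, beside 35.5% and 26.4% of the brighter genes. Nop10, the smallest protein of the H/ACA snoRNPs that turn uridine into pseudouridine, read 13.74 and 13.72 with control siRNA, 13.10 and 13.04 with siRNA #1, and 12.92 and 12.94 with siRNA #2. The 3 groups did not overlap, with siRNA #2 lowest at 57.5% of control and siRNA #1 at 63.4%. The differences were -0.66 ± 0.04 (adjusted p = 6e-11) and -0.80 ± 0.04 (adjusted p = 2.04e-12), and the second Nop10 probe set gave -0.69 in the mean of both siRNAs. The other H/ACA proteins had smaller differences. Dkc1, the pseudouridine synthase itself, read 13.10 and 13.08 with control siRNA, 13.13 and 13.06 with siRNA #1, and 12.96 and 12.92 with siRNA #2, which put siRNA #1 on both sides of control and siRNA #2 below it (0.01 ± 0.05, adjusted p = 0.893, for siRNA #1 and -0.15 ± 0.05, adjusted p = 0.0125, for siRNA #2). Nhp2, an H/ACA core protein, fell with siRNA #2 by 0.14 (adjusted p = 0.0151), and Gar1, the fourth of that core, gave -0.04 ± 0.05 (adjusted p = 0.586) and -0.12 ± 0.05 (adjusted p = 0.0687). The siRNA #2 calls of Dkc1 and Nhp2 were lost without control replicate 1 (-0.14 and -0.13), control replicate 2 (-0.16 and -0.14) or siRNA #2 replicate 2 (-0.13 and -0.10), with adjusted p from 0.0532 to 0.183. The second Nhp2 probe set fell with both siRNAs, by 0.29 and 0.47 (limma, adjusted p = 0.000151 and 5.81e-07 over all probe sets). The Dkc1 probe set with the lowest signal gave -0.41 with siRNA #1 and -0.21 with siRNA #2 (adjusted p = 0.0049 and 0.145 over all probe sets).

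The C/D snoRNPs methylate rRNA at the ribose, and their paired scaffold proteins Nop56 and Nop58 moved in opposite directions. Nop56 read 12.89 and 12.92 with control siRNA, 12.67 and 12.56 with siRNA #1, and 12.54 and 12.59 with siRNA #2, below control on every Ncl siRNA array (-0.29 ± 0.05, adjusted p = 6.11e-05, for siRNA #1 and -0.34 ± 0.05, adjusted p = 7.41e-06, for siRNA #2). Nop58 read 12.95 and 12.91 with control siRNA, 13.21 and 13.17 with siRNA #1, and 13.08 and 13.11 with siRNA #2, above control on every Ncl siRNA array (0.26 ± 0.04, adjusted p = 5.11e-05, for siRNA #1 and 0.17 ± 0.04, adjusted p = 0.00414, for siRNA #2). For siRNA #2 the Nop58 call was lost without control replicate 2 (0.15, adjusted p = 0.0688) or without siRNA #2 replicate 2 (0.15, adjusted p = 0.0606). Fbl, the methyltransferase fibrillarin, read 13.25 and 13.24 with control siRNA, 13.27 and 13.05 with siRNA #1, and 13.03 and 13.06 with siRNA #2. Replicate 1 of siRNA #1 lay above both control arrays and the other 3 Ncl siRNA arrays below them, and only siRNA #2 passed (-0.09 ± 0.05, adjusted p = 0.232, for siRNA #1 and -0.20 ± 0.05, adjusted p = 0.00516, for siRNA #2), and without _x_at and _s_at probe sets it did not (-0.09, adjusted p = 0.167). Nolc1, a chaperone that brings snoRNPs to the nucleolus, fell with both siRNAs. It read 12.45 and 12.39 with control siRNA, 12.12 and 12.04 with siRNA #1, and 11.97 and 12.05 with siRNA #2, with no overlap, and differed by -0.34 ± 0.05 (adjusted p = 2.36e-05) and -0.41 ± 0.05 (adjusted p = 1.53e-06). The Nolc1 probe set with the next highest signal gave -0.47 and -0.61. The one with the lowest signal gave -0.08 with siRNA #1 and -0.51 with siRNA #2 (limma, adjusted p = 0.502 and 0.000119 over all probe sets).

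Of the 18 small subunit factors 6 fell and 2 rose with siRNA #1, beside 24.8% and 31.4% of the brighter genes. With siRNA #2, 9 fell and 1 rose, beside 35.5% and 26.4% of the brighter genes. Noc4l, the partner of Nop14 in the processome, read 10.92 and 10.92 with control siRNA, 10.39 and 10.23 with siRNA #1, and 10.12 and 10.10 with siRNA #2. Both siRNA groups lay below control, at 65.5% and 57% of it (-0.61 ± 0.07, adjusted p = 2.09e-07, for siRNA #1 and -0.81 ± 0.07, adjusted p = 2.25e-09, for siRNA #2). This value rests on _x_at probe sets, since the 1 Noc4l probe set without that suffix or _s_at gave -0.10 (adjusted p = 0.316) and -0.17 (adjusted p = 0.0695). Wdr75, a protein of the UTP-A complex that joins transcription to early processing, read 11.84 and 11.86 with control siRNA, 11.40 and 11.30 with siRNA #1, and 11.28 and 11.20 with siRNA #2. It fell to 70.5% and 65.2% of control without overlap (-0.50 ± 0.06, adjusted p = 2.87e-07, for siRNA #1 and -0.62 ± 0.06, adjusted p = 1.08e-08, for siRNA #2). Utp15, of the same complex, read 10.43 and 10.48 with control siRNA, 10.11 and 10.02 with siRNA #1, and 9.98 and 9.99 with siRNA #2, again with no overlap (-0.39 ± 0.07, adjusted p = 8.1e-05, for siRNA #1 and -0.47 ± 0.07, adjusted p = 6.79e-06, for siRNA #2). Wdr43 and Heatr1, further UTP-A proteins, did not pass with either siRNA, at -0.15 and -0.11 for Wdr43 and -0.02 and -0.06 for Heatr1, whose lowest probe set gave -0.49 in the mean of both.

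Imp3 and Imp4, which bind the U3 snoRNA that base pairs with the precursor, fell with both siRNAs. Imp3 differed by -0.41 ± 0.06 (adjusted p = 9.05e-06) and -0.44 ± 0.06 (adjusted p = 2.6e-06). Imp4 differed by -0.23 ± 0.07 (adjusted p = 0.00974) and -0.38 ± 0.07 (adjusted p = 6.94e-05), and its siRNA #1 call was lost without control replicate 1 (-0.21, adjusted p = 0.0673) or siRNA #1 replicate 2 (-0.14, adjusted p = 0.0769). Its other probe sets gave 0.20 and 0.03 in the mean of both siRNAs, against -0.31 on the one used. Utp3 fell by 0.27 and 0.23 (adjusted p = 0.00151 and 0.00492), the latter lost without control replicate 2 (-0.18, adjusted p = 0.0843). Ddx10, an RNA helicase, fell with siRNA #2 (-0.28 ± 0.06, adjusted p = 0.000464) and gave -0.11 ± 0.06 (adjusted p = 0.143) with siRNA #1. Its other probe set fell with both, by 0.56 and 0.59 (limma, adjusted p = 0.000553 and 0.000282 over all probe sets). Ltv1, a late factor that leaves the nucleus with the small subunit, read 11.32 and 11.27 with control siRNA, 11.27 and 11.21 with siRNA #1, and 11.11 and 11.12 with siRNA #2. Its siRNA #1 arrays overlapped control and its siRNA #2 arrays lay below (-0.18 ± 0.06, adjusted p = 0.0169). The GTPase Bms1 read 12.82 and 12.81 with control siRNA, 12.72 and 12.69 with siRNA #1, and 12.66 and 12.66 with siRNA #2. Both groups lay below control, and siRNA #2 passed (-0.16 ± 0.05, adjusted p = 0.00709). Leaving out control replicate 1, siRNA #2 replicate 1 or siRNA #2 replicate 2 ended both calls, with Ltv1 at -0.15 to -0.18 and Bms1 at -0.15 to -0.16. The other Bms1 probe set, with lower signal, fell with both siRNAs, by 0.50 and 0.72 (limma, adjusted p = 6.55e-05 and 7.71e-07 over all probe sets).

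The genes of the small subunit that rose were Utp20 and Nop14. Utp20, a large scaffold of the processome, read 11.64 and 11.57 with control siRNA, 12.02 and 11.91 with siRNA #1, and 11.82 and 11.91 with siRNA #2. All 4 Ncl siRNA arrays lay above control, by 0.36 ± 0.06 (adjusted p = 2.29e-05) and 0.26 ± 0.06 (adjusted p = 0.000709). The siRNA #1 call was kept in every alternative run, and the siRNA #2 call was not. Nop14 read 10.39 and 10.38 with control siRNA, 10.69 and 10.60 with siRNA #1, and 10.49 and 10.55 with siRNA #2 and was above control on all 4 as well, while its partner Noc4l was below. Nop14 passed with siRNA #1 (0.26 ± 0.06, adjusted p = 0.00303) and not with siRNA #2 (0.13 ± 0.06, adjusted p = 0.112), and the difference between the siRNAs did not pass (-0.12, adjusted p = 0.255). Rrp9, Rrp12, Utp14a, Utp18 and Nol6 passed with neither siRNA, with differences from -0.12 (Utp14a, siRNA #2) to 0.27 (Nol6, siRNA #2), the latter with an SE of 0.15.

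Of the 12 measured large subunit factors 5 fell and 2 rose with siRNA #1, beside 24.8% and 31.4% of the brighter genes. With siRNA #2, 6 fell and 1 rose, beside 35.5% and 26.4% of the brighter genes. Ftsj3, a methyltransferase of large subunit precursors, had the lowest difference of the 50 genes. It read 10.79 and 10.79 with control siRNA, 10.08 and 9.93 with siRNA #1, and 9.88 and 9.92 with siRNA #2, so every Ncl siRNA array lay below control, at 58.1% and 54% of it (-0.78 ± 0.07, adjusted p = 8.07e-09, for siRNA #1 and -0.89 ± 0.07, adjusted p = 8.33e-10, for siRNA #2). Nop16 read 10.93 and 10.84 with control siRNA, 10.54 and 10.42 with siRNA #1, and 10.36 and 10.40 with siRNA #2 and fell by 0.41 and 0.51 (adjusted p = 3.49e-05 and 1.67e-06), with no overlap. Noc2l, which works in pairs with Noc3l as the subunit leaves the nucleolus, read 9.81 and 9.84 with control siRNA, 9.42 and 9.45 with siRNA #1, and 9.27 and 9.39 with siRNA #2, also with no overlap (-0.39 ± 0.08, adjusted p = 0.000376, for siRNA #1 and -0.50 ± 0.08, adjusted p = 1.77e-05, for siRNA #2). For Nop16 and Noc2l the second probe set pointed the other way, at 0.19 and 0.26 in the mean of both siRNAs. Nip7, which takes part in pre-rRNA processing, fell by 0.28 and 0.36 (adjusted p = 0.000108 and 2.97e-06), and both of its probe sets were lower.

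Noc3l differed by -0.23 ± 0.08 (adjusted p = 0.0359) and -0.37 ± 0.08 (adjusted p = 0.00102). Its siRNA #1 call was lost without any 1 of control replicate 1 (-0.27), control replicate 2 (-0.19), siRNA #1 replicate 2 (-0.20), siRNA #2 replicate 1 or siRNA #2 replicate 2 (both -0.23), with adjusted p from 0.0577 to 0.21. Its siRNA #2 call was lost without siRNA #2 replicate 1 (-0.28, adjusted p = 0.063). Brix1, an early assembly factor of the large subunit, read 12.57 and 12.59 with control siRNA, 12.94 and 12.93 with siRNA #1, and 12.84 and 12.85 with siRNA #2. It rose with both siRNAs without overlap (0.36 ± 0.04, adjusted p = 1.07e-06, for siRNA #1 and 0.26 ± 0.04, adjusted p = 4.63e-05, for siRNA #2), and its second probe set gave 0.62 in the mean of both. Gnl2, a nucleolar GTPase, rose with siRNA #1 (0.20 ± 0.07, adjusted p = 0.0322) and gave 0.14 ± 0.07 (adjusted p = 0.13) with siRNA #2, but its 3 probe sets gave 0.17, -0.59 and 0.52 in the mean of both. That call was lost without control replicate 1 (0.21), control replicate 2 (0.19), siRNA #1 replicate 1 (0.14) or either siRNA #2 replicate (0.20), with adjusted p from 0.0637 to 0.148.

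Pes1, Bop1 and Wdr12 form the PeBoW complex, which large subunit processing needs. Pes1 read 11.51 and 11.49 with control siRNA, 11.62 and 11.42 with siRNA #1, and 11.30 and 11.27 with siRNA #2, with siRNA #1 on both sides of control and siRNA #2 below it (0.02 ± 0.06, adjusted p = 0.841, for siRNA #1 and -0.22 ± 0.06, adjusted p = 0.0072, for siRNA #2). The siRNA #2 call was lost without siRNA #2 replicate 2 (-0.20, adjusted p = 0.0618). Bop1 read 9.83 and 9.92 with control siRNA, 9.95 and 9.88 with siRNA #1, and 9.71 and 9.75 with siRNA #2 and passed with neither siRNA (0.04 ± 0.07, adjusted p = 0.718, for siRNA #1 and -0.15 ± 0.07, adjusted p = 0.124, for siRNA #2), with 95% intervals of -0.11 to 0.19 and -0.30 to 0.01. Wdr12 gave 0.08 ± 0.06 (adjusted p = 0.314) and -0.11 ± 0.06 (adjusted p = 0.173). Its second probe set, with lower signal, gave -0.84 in the mean of both siRNAs (adjusted p = 1.2e-06 over all probe sets), and the second Pes1 probe set gave 0.47. Nop2, an rRNA methyltransferase, and Rrs1, which helps to bring in the 5S particle, passed with neither siRNA (0.05 and -0.03, and 0.01 and 0.14). The Rrs1 probe set used ends in _x_at. The other Rrs1 probe set rose with both siRNAs, by 0.22 and 0.19 (limma, adjusted p = 0.00442 and 0.0121 over all probe sets).

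Among the nucleolar proteins Lyar and Ddx21 fell with both siRNAs and Npm1 with neither. Lyar, a zinc finger protein found in the nucleolus of dividing cells, read 12.03 and 12.01 with control siRNA, 11.71 and 11.56 with siRNA #1, and 11.52 and 11.45 with siRNA #2. Each Ncl siRNA array was below control, at 76.6% and 69% of it (-0.39 ± 0.06, adjusted p = 1.42e-05, for siRNA #1 and -0.54 ± 0.06, adjusted p = 1.21e-07, for siRNA #2). Ddx21, an RNA helicase that binds rDNA and snoRNAs, read 11.74 and 11.70 with control siRNA, 11.34 and 11.47 with siRNA #1, and 11.36 and 11.37 with siRNA #2, with no overlap (-0.31 ± 0.06, adjusted p = 0.000138, for siRNA #1 and -0.35 ± 0.06, adjusted p = 2.74e-05, for siRNA #2). Npm1, or nucleophosmin, the main protein of the granular outer zone, read 14.63 and 14.58 with control siRNA, 14.60 and 14.64 with siRNA #1, and 14.69 and 14.59 with siRNA #2. Its groups overlapped, and the 95% intervals of its differences were -0.07 to 0.10 for siRNA #1 and -0.05 to 0.12 for siRNA #2. The Npm1 signal lay near the highest value on any array, 15.34, and what that does to its differences was not tested. Gnl3, or nucleostemin, a GTPase known from stem cells, read 12.57 and 12.52 with control siRNA, 12.51 and 12.47 with siRNA #1, and 12.37 and 12.44 with siRNA #2. Both groups lay below control, and only siRNA #2 passed (-0.06 ± 0.05, adjusted p = 0.38, for siRNA #1 and -0.14 ± 0.05, adjusted p = 0.0236, for siRNA #2). That call was lost without control replicate 1 (-0.12), control replicate 2 (-0.17) or siRNA #2 replicate 1 (-0.11), with adjusted p from 0.0549 to 0.272.

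The siRNAs were then compared with each other. The differences in this contrast use no control array, while its SE and p-values use the spread pooled over all 6 arrays. Of the 50 genes 3 passed, all lower with siRNA #2 than with siRNA #1, beside 8.48% of all genes (6.18% lower, 2.3% higher) and 14.8% of the brighter genes (11.3% lower, 3.52% higher). They were Pes1 (-0.24 ± 0.06, adjusted p = 0.0208), Dkc1 (-0.16 ± 0.05, adjusted p = 0.0353) and Nop10 (-0.14 ± 0.04, adjusted p = 0.0491). The median over the 50 genes was -0.10, with 42 of 50 below 0, and the median over the brighter genes was also -0.10. Both siRNA #2 arrays lay below both siRNA #1 arrays for 31 genes and above for 2, beside 33.3% and 20.9% of all genes. Among the 9097 brighter genes 4641 lay below and 1178 above in this way. In the same contrast 9 of the 10 embryonic stem cell markers fell, with a median of -0.21, and their part in this result was not tested. The count of 3 became 20 without siRNA #1 replicate 2, 1 without control replicate 1 or control replicate 2, and 0 without siRNA #1 replicate 1, siRNA #2 replicate 1 or siRNA #2 replicate 2. It was also 0 after quantile normalization or centring on the brighter genes.

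**Figure D3:**
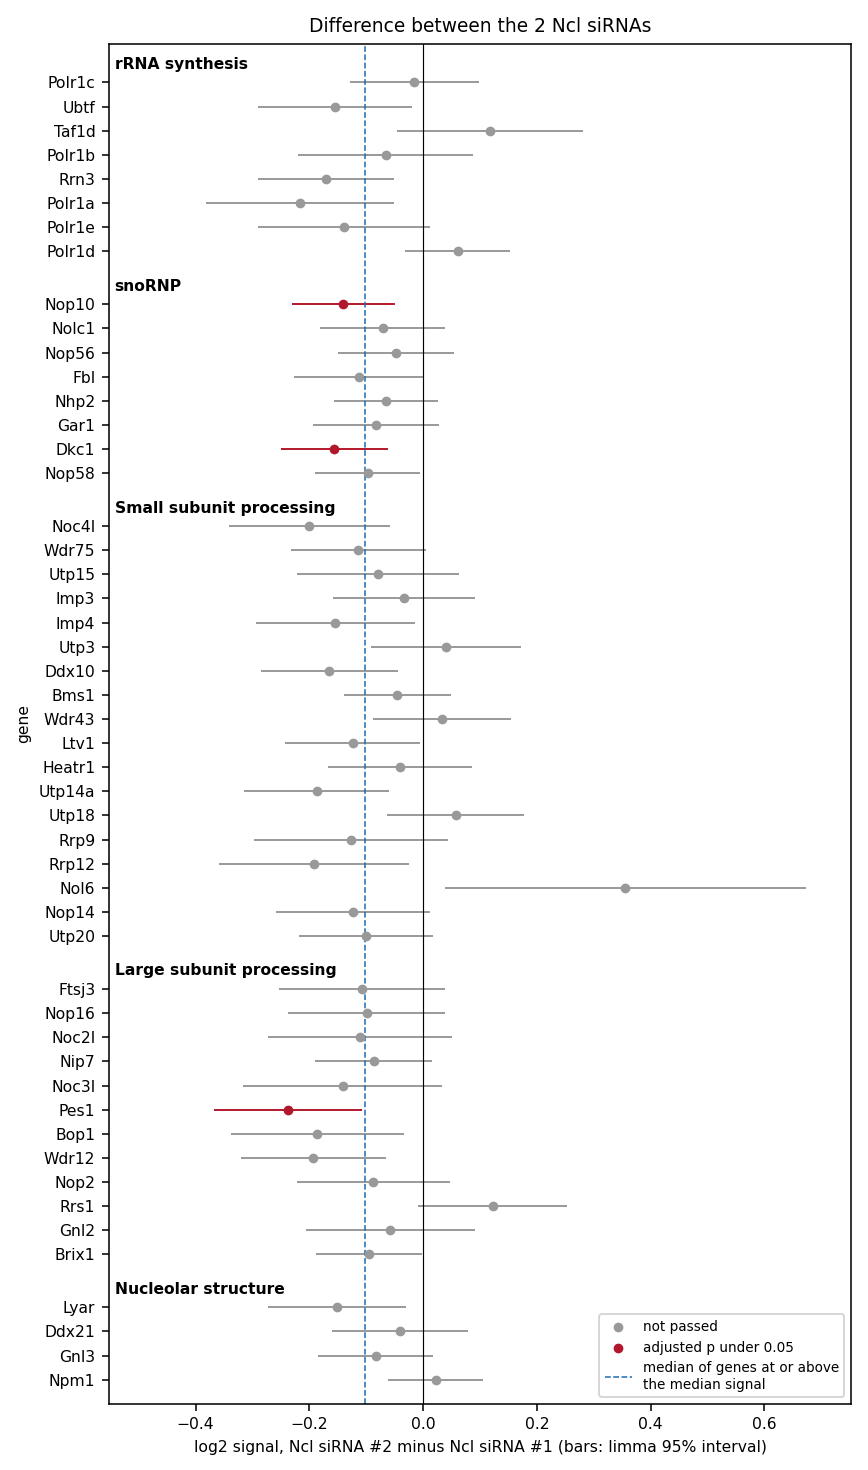
Log2 signal with siRNA #2 minus siRNA #1 (horizontal axis) for each of the 50 genes, 1 row per gene grouped by step, with bars for limma's 95% interval, red for genes that passed and a dashed line at the median of the brighter genes, -0.10. Of the 50 points 42 lie below 0, and Pes1, Dkc1 and Nop10 are the red ones.

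Probe sets of the same gene were set side by side as differences from control. Of the 50 genes 15 had 1 probe set and 35 had several, 103 in all. Of the 25 genes with several probe sets that passed in the mean of both siRNAs, 18 had all of them on the same side of 0 and 7 did not. Ubtf had the widest gap. Its second probe set read 9.84 and 9.94 with control siRNA, 7.76 and 7.28 with siRNA #1, and 7.27 and 7.40 with siRNA #2, so that 19.3% and 17.1% of control remained, against 80.5% and 72.3% on the probe set used. Its difference in the mean of both siRNAs was -2.46 ± 0.11 (limma, adjusted p = 8.85e-12 over all probe sets with 1 symbol), against -0.39 on the probe set used. Which transcripts of Ubtf each probe set reads was not analysed here.

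**Figure D4:**
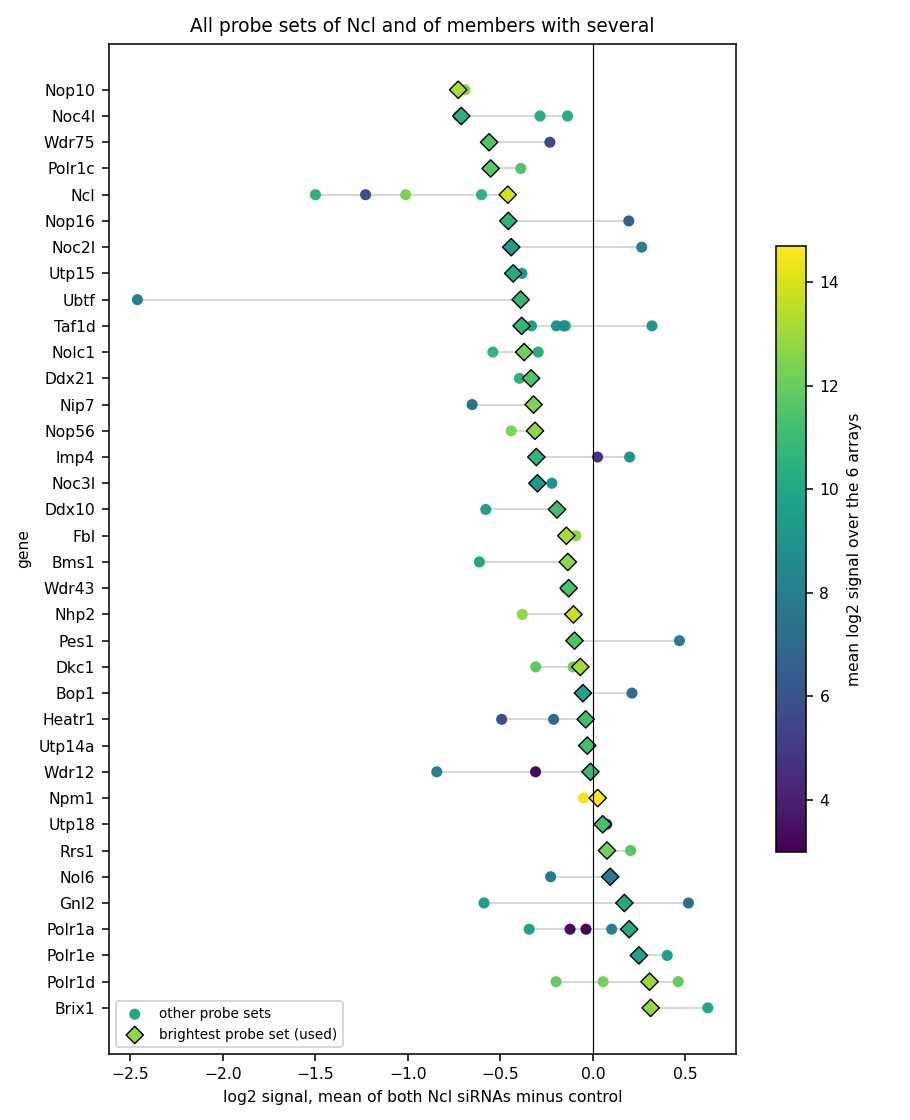
Log2 difference from control in the mean of both siRNAs (horizontal axis) for every probe set of Ncl and of the genes with more than 1, 1 row per gene, with diamonds for the probe set used, circles for the others and colour for the mean log2 signal. The second Ubtf probe set lies at -2.46, and the probe sets of Gnl2 span -0.59 to 0.52.

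Other genes listed for ribosome assembly were counted in the same way. Of 114 measured of 116, 43 fell and 16 rose with siRNA #1 (median -0.07), 58 fell and 12 rose with siRNA #2 (median -0.22), and 55 fell and 16 rose in the mean of both (48.2% and 14.0%, median -0.13). The shares over all genes were 17.3% and 20.2% with siRNA #1, 21.7% and 17.7% with siRNA #2, and 21.7% and 20.3% in the mean of both, where those over the brighter genes were 32.8% and 30.7%. In the mean of both, 24 of 44 genes listed for the large subunit fell and 7 rose. Of those listed for the small subunit 15 of 39 fell and 4 rose, and 7 of 12 exosome and nuclease genes fell and 2 rose. Of 9 further genes listed for RNA polymerase I and its regulators 4 fell, Baz2a among them, and the other 5 did not pass. Of 10 genes listed for snoRNPs and their assembly 5 fell and 3 rose. The RNA polymerase III subunits, which share Polr1c and Polr1d with polymerase I, had 6 of 10 that fell and 1 that rose, with a median of -0.28. The lowest of them was Polr3gl, at -1.13 with siRNA #1 and -1.43 with siRNA #2.

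Leaving the RNA polymerase III subunits aside, the lowest of the 114 genes in the mean of both were Exosc7 and Exosc4, subunits of the exosome that trims rRNA ends, with Utp23 and Las1l. Exosc7 read 11.64 and 11.70 with control siRNA, 11.04 and 10.90 with siRNA #1, and 10.81 and 10.83 with siRNA #2, with no overlap (-0.70 ± 0.06, adjusted p = 5.68e-09, for siRNA #1 and -0.85 ± 0.06, adjusted p = 2.05e-10, for siRNA #2). Exosc4 read 10.36 and 10.54 with control siRNA, 9.96 and 9.73 with siRNA #1, and 9.50 and 9.52 with siRNA #2, and siRNA #2 lay below siRNA #1 as well as control (-0.60 ± 0.08, adjusted p = 4.55e-06, for siRNA #1 and -0.94 ± 0.08, adjusted p = 5.31e-09, for siRNA #2). Utp23, a small subunit factor, differed by -0.62 and -0.84, and Las1l, the endonuclease that cuts the second internal spacer, by -0.56 and -0.80. The highest were Pwp2, a core protein of the U3 processome, Riok3, a kinase, and the helicases Ddx56 and Ddx24. Pwp2 read 9.97 and 10.07 with control siRNA, 10.61 and 10.58 with siRNA #1, and 10.73 and 10.68 with siRNA #2, above control on every Ncl siRNA array (0.58 ± 0.07, adjusted p = 3.32e-07, for siRNA #1 and 0.69 ± 0.07, adjusted p = 2.05e-08, for siRNA #2). Riok3 differed by 0.48 and 0.54, Ddx56 by 0.54 and 0.44, and Ddx24 by 0.40 and 0.25.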

How the data were processed

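Total RNA was measured on 6 Affymetrix arrays, with Affymetrix's in vitro transcription labelling per the labels' protocols. The authors deposited 1 table of log2 signals for 45101 probe sets; how probes were summarised and arrays normalized is not given in the sources used here; the log2 scale was read from the range of the values (2.47 to 15.34). GEO's platform annotation gave 1 gene symbol to 34958 probe sets, several to 932 and none to 9211. The probe set with the highest mean over the 6 arrays stood for each of 18194 genes. The deposited values were used as they are, with 1 mean per group, lmFit and eBayes with a trend in limma 3.58.1 under R 4.3.3 (3 residual and 17.5 prior degrees of freedom), and Benjamini-Hochberg adjustment over all genes at 0.05. The fit was also run on simulated arrays drawn with the spreads of the main fit, with genes changed in both siRNA groups. In the mean of both siRNAs it found 6 of 50 genes changed by 0.25 (log2) and 33 of 50 changed by 0.5. It found all 50 changed by 1 and all 50 changed by 2, with 9 false calls. Tables and figures used Python 3.11.15, pandas 2.3.3, numpy 2.4.6 and matplotlib 3.10.9. Precision is limited by having 2 arrays per group.

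The genes and lists were chosen with earlier results of these data known. Genes given array by array were, per step, the 3 highest and 3 lowest in the mean of both siRNAs among those that passed with either siRNA, those that passed between the siRNAs, and Ncl, Npm1, Fbl, Ubtf, Rrn3, Polr1a, Polr1b, Nop56, Dkc1, Bop1 and Pes1, and, of the other assembly genes, the 4 highest and 4 lowest. Any further gene given array by array was chosen after its values were seen. Alternatives were quantile normalization, centring, other choices of probe sets, a filter on dim genes, other variance models, array weights, a replicate block, fewer arrays in the fit and leaving out each array. Promoter windows came from RefSeq (GRCm38.p6). Protein sequences were not analysed here.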

Additional observations from a re-analysis of the deposited data

Results flagged for a closer look

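Differences between the siRNAs were tested directly with limma over all 18194 genes, and the genes that passed are given here as values. Pes1 was lower with siRNA #2 than with siRNA #1, with a difference of -0.24 (adjusted p = 0.0208), with both siRNA #2 arrays below both siRNA #1 arrays. Dkc1 differed by -0.16 (adjusted p = 0.0353) and Nop10 by -0.14 (adjusted p = 0.0491), again without overlap. Of the genes named from the wider list, Exosc4 differed by -0.34 (adjusted p = 0.0136) and Las1l by -0.24 (adjusted p = 0.0452). Leaving out siRNA #1 replicate 1 brought Pes1 to -0.14 (adjusted p = 0.212), Dkc1 to -0.12 (adjusted p = 0.182) and Nop10 to -0.11 (adjusted p = 0.2). No group held the 4 or more arrays that a test for a single outlying array needs.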

How the results depend on the processing

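With quantile normalization, median centring or centring on the brighter genes, more of the 50 genes fell than rose in each comparison with control: 21, 22 and 28 fell and 8, 7 and 7 rose with siRNA #1, and 25, 32 and 26 fell and 7, 3 and 7 rose with siRNA #2. Centring on the brighter genes and testing all probe sets together were chosen after seeing the data. The brighter-gene centring moved the all-gene median between the siRNAs from -0.03 to 0.07. Variances without a trend gave 5 that rose with siRNA #1, 21 that changed with siRNA #2 (19 fell, 2 rose), 22 that changed in the mean of both (4 rose) and 0 between the siRNAs. With only the compared arrays 8 rose with siRNA #2. The 3 that changed, all falling, between the siRNAs became 0 with quantile normalization or brighter-gene centring, 8 with median centring, 8 without dim genes, 1 with the mean of all probe sets, 1 with only the compared arrays and 1 with all probe sets tested together. Leaving out 1 array at a time gave 3 to 8 that rose with siRNA #2 (8 without siRNA #1 replicate 1 or replicate 2), 5 to 9 that rose in the mean of both (5 without control replicate 1 or replicate 2), and between the siRNAs 0 to 20 that changed, 0 to 17 that fell and 0 to 3 that rose (20, 17 and 3 without siRNA #1 replicate 2). The mean of all probe sets turned Dkc1 (-0.14), Imp4 (0.0058) and Wdr12 (-0.33) with siRNA #1, Pes1 with siRNA #2 (0.049), and Polr1a (-0.042) and Pes1 (0.18) in the mean of both. Without _x_at and _s_at probe sets Polr1d turned with siRNA #2 (-0.014). The cause of these shifts was not tested. In the mean of both, 14 of the 26 that fell and 2 of the 8 that rose kept their call in every alternative run. With siRNA #1, 13 of the 20 that fell and 4 of the 8 that rose did so. With siRNA #2, 14 of the 29 that fell and 1 of the 4 that rose, Brix1, did so. Arrays with the same replicate number did not deviate together (correlations of -0.02, -0.01 and 0.01), and the replicate block gave 28 changed with siRNA #1, 33 with siRNA #2, 33 in the mean of both and 2 between the siRNAs.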
